A study of Mus musculus with 12 samples.

Results

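Collagens form the fibres, sheets and filaments that hold fat cells and vessels in place, and 41 collagen genes could be followed in white adipose tissue of cold-exposed mice. Members were all genes whose symbol reads Col, a number, a and a number, found as the sole gene of a probe set, with Col18a1 left out. They made up 41 of the 18193 genes that the arrays name, read by 80 probe sets. Of these, 26 were bright enough to test, among 12855 tested genes, and each was represented by its brightest probe set. They were taken as 11 fibrillar collagens (8 tested), 6 basement membrane collagens (4 tested), 5 beaded filament collagens (4 tested) and 19 others (10 tested).

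The study measured 12 Affymetrix arrays of white adipose tissue from male C57/BL6 mice, 3 arrays in each of 4 groups. All animals were 6 to 8 weeks old and had lived at 22 °C; the protocol then gives 18 °C for 1 to 3 weeks, followed by 4 °C for 1 week or 5 weeks in the cold groups. Controls were sampled at the same 2 times, but titles put them at 30 °C and source names at room temperature and so the control temperature is uncertain. The groups are called control_1wk, cold_1wk, control_5wk and cold_5wk. Neither the fat depot nor separate animals per array are stated. P-values thus measure the spread between arrays, which may be technical, and 3 arrays per group limit the precision.

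A collagen molecule is a rope of wound chains, assembled in the endoplasmic reticulum, trimmed after export and crosslinked outside the cell. Types I, III and V build fibrils, type IV builds the sheet-like network of basement membranes, and type VI builds beaded filaments that surround adipocytes. Fibroblasts and adipose progenitors make most fibrillar collagen of fat, while endothelial cells and adipocytes contribute basement membrane chains. In bulk tissue, fewer cells of a type and less RNA per cell cannot be told apart.

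The start regions of 3 genes whose signals were lower in the cold are shown because the data below bear on their transcripts: Col1a2 and Col3a1 encode chains of the most plentiful fibril types, and Col6a1 a core chain of the type VI filament. Each is the 250 bases before the annotated RefSeq start on GRCm38.p6, read 5′ to 3′ on the gene's strand, at chr6:4505368-4505617 for Col1a2 (plus strand), chr1:45311288-45311537 for Col3a1 (plus strand) and chr10:76726045-76726294 for Col6a1 (minus strand). Capitals mark matches on either strand to letter strings of 4 kinds: the CCAAT box, the TATA box written TATAAA, the GC box written GGGCGG, and the string CAGAC found in Smad sites. The matches do not overlap one another.
Col1a2: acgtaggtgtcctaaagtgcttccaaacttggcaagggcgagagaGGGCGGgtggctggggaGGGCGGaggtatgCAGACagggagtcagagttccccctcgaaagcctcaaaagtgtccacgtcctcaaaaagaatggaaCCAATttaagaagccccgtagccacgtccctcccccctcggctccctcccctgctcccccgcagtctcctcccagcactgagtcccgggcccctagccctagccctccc
Col3a1: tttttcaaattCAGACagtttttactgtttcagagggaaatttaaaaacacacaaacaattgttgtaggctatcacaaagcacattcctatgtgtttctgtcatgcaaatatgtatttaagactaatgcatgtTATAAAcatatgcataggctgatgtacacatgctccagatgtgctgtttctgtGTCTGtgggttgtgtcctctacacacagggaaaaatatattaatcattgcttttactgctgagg
Col6a1: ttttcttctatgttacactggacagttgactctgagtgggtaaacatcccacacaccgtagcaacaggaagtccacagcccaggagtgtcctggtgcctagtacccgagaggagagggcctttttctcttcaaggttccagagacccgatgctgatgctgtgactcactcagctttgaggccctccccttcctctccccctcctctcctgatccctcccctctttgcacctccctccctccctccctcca
Col1a2 held GGGCGG at 205 and 188 bases, CAGAC at 175 and CCAAT at 109 bases before its start. Col3a1 held CAGAC at 239 bases, the same letters on the opposite strand at 64 bases, and TATAAA at 117 bases before its start. In Col6a1 none of these letter strings was in the window. RefSeq windows were matched for 32 member genes, 20 of them tested (22 windows). GGGCGG was in 59.1% of those 22 windows against 32.7% of all 32851, CAGAC in 50.0% against 42.2%, CCAAT in 40.9% against 33.8% and TATAAA in 4.55% against 12.4%. The 32851 windows include those of genes not tested here, and a share over tested genes alone was not computed. Letter matches describe sequence, not a bound site.

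After 1 week at 4 °C the main fibril and filament chains read lower than in controls. In limma, 11 of 26 collagen genes (42.3%) differed from controls at an adjusted p under 0.05, against 49.5% of all tested genes, so the share of calls was not above the background. Of these calls 10 were lower in the cold and 1, Col27a1, was higher; 38.5% of the members were called lower against 31.6% of all genes, and the median change was -0.19 on the log2 scale for the members and -0.08 for all genes. Cold arrays lay wholly below control arrays for 12 members (46.2%) against 33.7% of genes, and wholly above for 2 (7.69%) against 26.0%. At 5 weeks 17 of 26 (65.4%) were called against a background of 36.2%. Of these 13 were lower (50.0% of members against 21.2% of all genes). The other 4 were higher, a share near the 15.0% of all genes called higher. The median was then -0.33 for the members and -0.03 for all genes, and 16 members lay wholly below their controls (61.5% against 30.7%) and 7 wholly above (26.9% against 28.3%). Being lower at both times was seen for 9 genes, which were Col1a1, Col1a2, Col3a1, Col5a2, Col6a1, Col6a2, Col6a3, Col14a1 and Col15a1, and Col27a1 was higher at both. The shares of all genes called lower or higher at both times were not counted, so no background stands beside these.

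Directions depended partly on scaling. When each array was shifted to a common median over tested genes, the median change of all genes moved from -0.08 to 0.14 at 1 week and from -0.03 to 0.13 at 5 weeks, and that of the collagens from -0.19 to 0.03 and from -0.33 to -0.17. Centring gave 5 rises among 14 calls at 1 week (35.7% against 9.09% as deposited) because Col5a3, Col7a1, Col9a1 and Col12a1 then passed as higher while Col3a1 was no longer called. Over all genes rises went from 36.2% to 63.9% of calls at 1 week. Every change below is relative to the authors' scaling, and the collagen median lay below that of all genes under both. Of the members called at 5 weeks, only Col1a2, Col6a1, Col6a2, Col6a3 and Col27a1 stayed called with the Actb covariate described below.

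**Figure D1:**
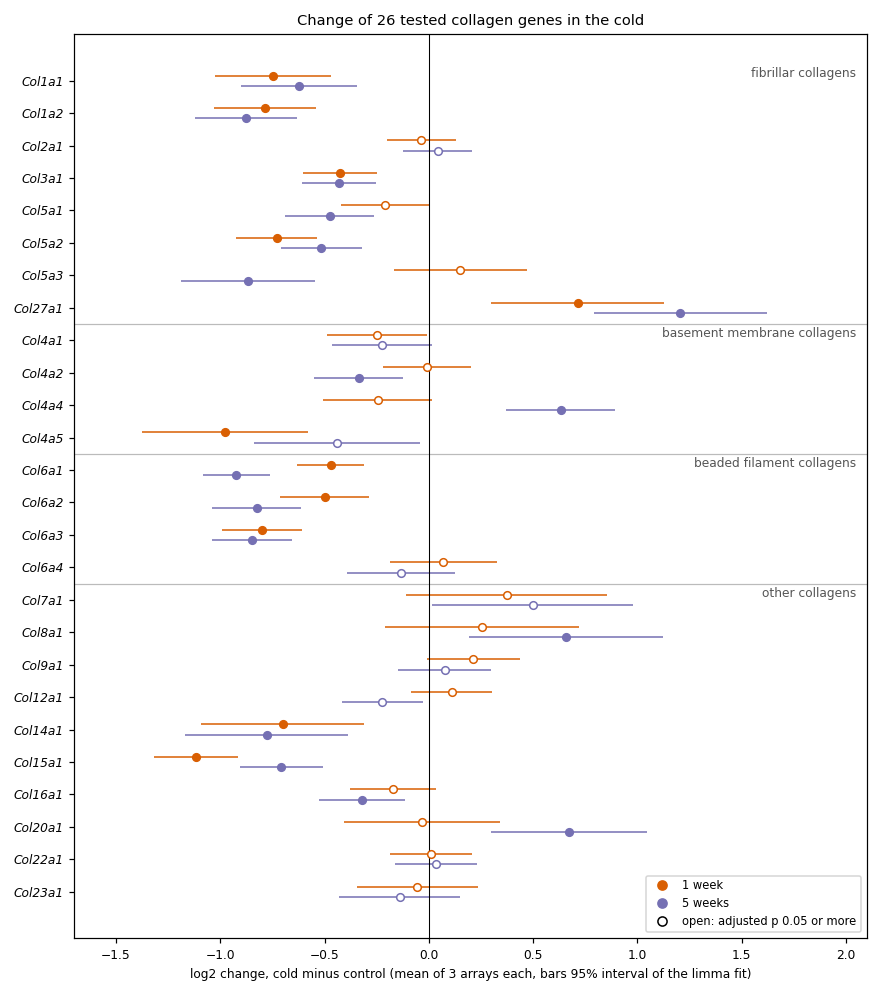
Change of each tested collagen gene in the cold: the x axis is the log2 difference between cold and control means with its 95% interval, rows are the 26 genes by class, orange is 1 week and purple 5 weeks. Filled points passed an adjusted p under 0.05; the filled points of types I, III, V and VI lie left of 0, and Col27a1 lies right of 0 at both times.

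Type I collagen, the main tensile fibre, is made of Col1a1 and Col1a2 chains. At 1 week, log2 signals of Col1a1 were 11.98, 12.05 and 12.31 in the controls and 11.41, 11.43 and 11.26 in the cold. At 5 weeks they were 11.77, 11.77 and 11.44 in the controls and 10.97, 11.21 and 10.94 in the cold. Every cold array read below every control array of its week. Col1a1 fell by 0.75 at 1 week (SE 0.13, 1.68-fold lower, adjusted p = 0.000623) and by 0.62 at 5 weeks (SE 0.13, 1.54-fold lower, adjusted p = 0.00291). Its other probe set went the opposite way at 5 weeks, reading 9.59, 9.56 and 9.18 in the controls and 9.98, 9.99 and 10.26 in the cold, a difference of 0.63 (SE 0.14), while at 1 week it read -0.23 (SE 0.14). Averaged over both probe sets, the 5 week change of Col1a1 was 0.0047 with an adjusted p of 0.979, so the fall at 5 weeks rests on the brighter probe set.

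Col1a2, the partner chain, read 12.43, 12.60 and 12.59 in the controls and 11.82, 11.64 and 11.80 in the cold at 1 week. At 5 weeks the arrays read 12.87, 12.89 and 12.51 in the controls and 11.83, 11.85 and 11.96 in the cold. Groups were again apart at both times. Col1a2 fell by 0.79 (SE 0.11, 1.72-fold lower, adjusted p = 0.000198) and by 0.88 (SE 0.11, 1.84-fold lower, adjusted p = 0.000154), and its other probe set differed by -0.64 at 1 week and -0.23 at 5 weeks (SE 0.13 each). Its calls held at both times in all alternatives run.

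Col3a1 forms type III fibrils, which run with type I in soft tissue. It read 14.53, 14.59 and 14.54 in the controls and 14.16, 14.14 and 14.08 in the cold at 1 week, and 14.53, 14.54 and 14.36 in the controls and 14.09, 14.10 and 13.95 in the cold at 5 weeks. Arrays of a group lay close together and groups did not overlap at either time. Col3a1 fell by 0.43 at both times (SE 0.08 each, adjusted p = 0.00124 and 0.0018), and its second probe set differed by -0.65 and -0.73 (SE 0.13 each). With median centring the 1 week change of Col3a1 was -0.21 and no longer called (adjusted p = 0.0559). Its 5 week call was lost with the Actb covariate described below.

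**Figure D2:**
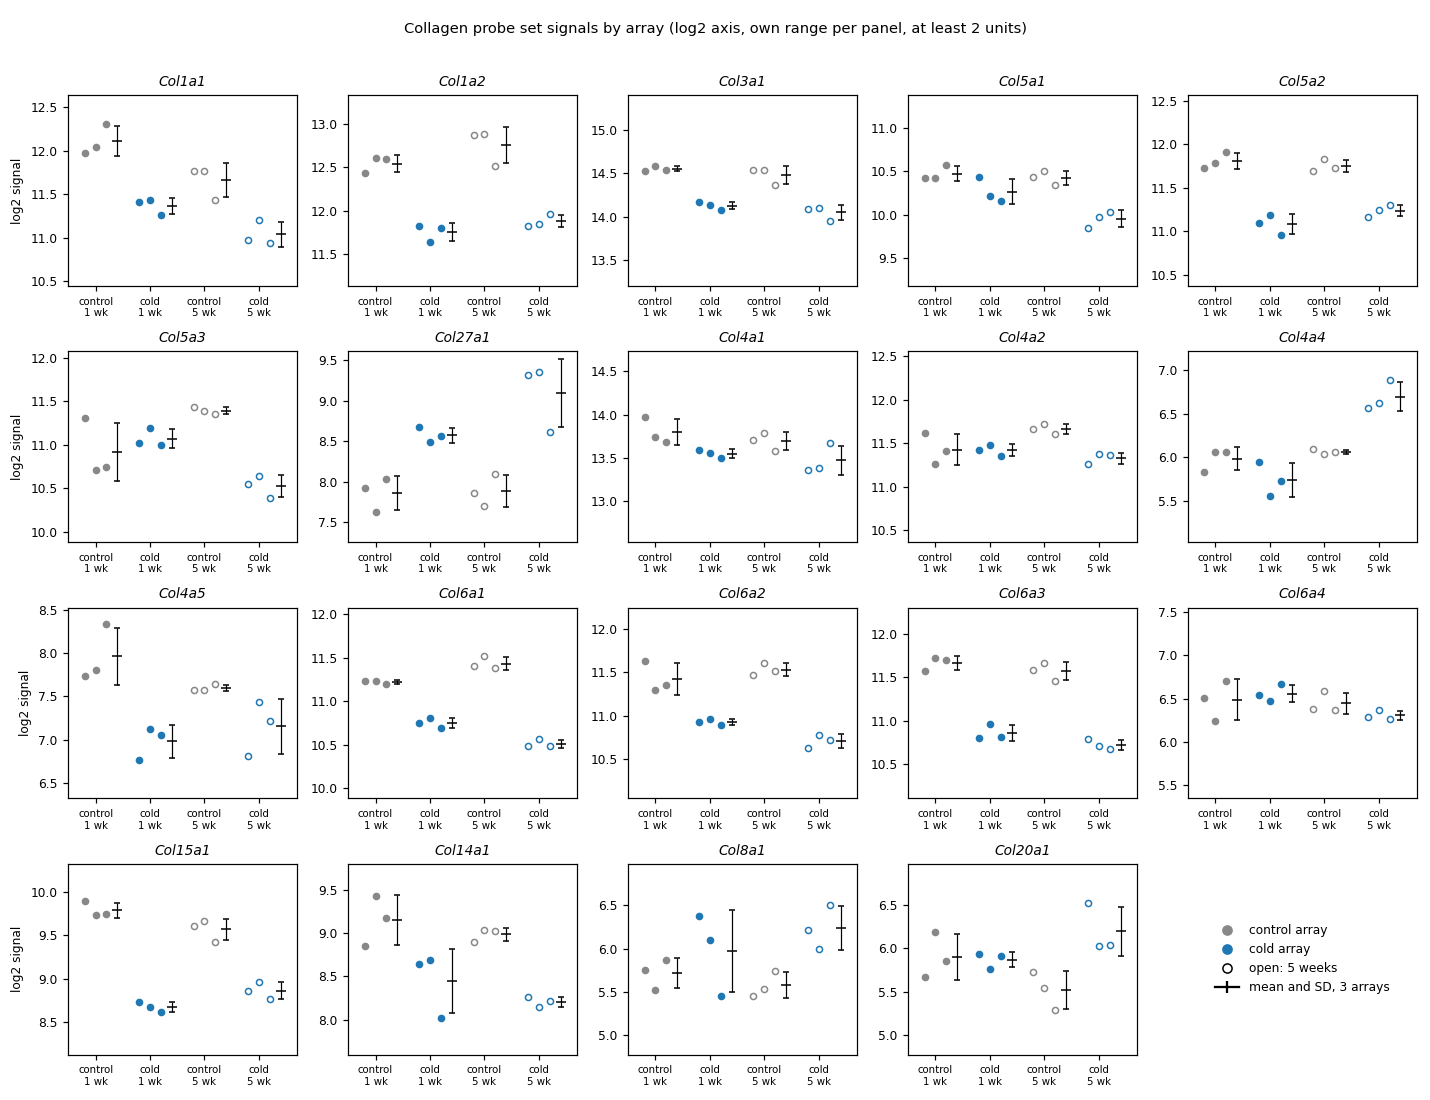
Log2 signal (y axis, each panel with its own range of at least 2 units) of 19 collagen genes on every array, grey for control and blue for cold, filled for 1 week and open for 5 weeks. Black marks are the mean and SD of 3 arrays; for Col6a1 the 5 week cold arrays lie between 10.48 and 10.56, below all other arrays.

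Type V collagen sits inside type I fibrils and sets their width, and its 3 chains did not share 1 pattern. Col5a2, whose gene is the neighbour of Col3a1 on chromosome 1, read 11.73, 11.79 and 11.91 in the controls and 11.10, 11.19 and 10.96 in the cold at 1 week. At 5 weeks Col5a2 read 11.70, 11.83 and 11.73 in the controls and 11.17, 11.24 and 11.30 in the cold. Groups were apart at both times. Col5a2 fell by 0.73 at 1 week (SE 0.09, adjusted p = 7.64e-05) and by 0.51 at 5 weeks (SE 0.09, adjusted p = 0.00106). Its other probe set differed by -1.05 and -0.48 (SE 0.14 each).

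Col5a1 read 10.43, 10.42 and 10.57 in the controls and 10.43, 10.21 and 10.16 in the cold at 1 week, where 1 cold array lay among the controls. At 5 weeks it read 10.44, 10.51 and 10.34 in the controls and 9.85, 9.98 and 10.04 in the cold, with all cold arrays below. The 1 week change was -0.21 (SE 0.10, adjusted p = 0.0949) and not called; without cold_1wk replicate 1 it was -0.29 and called (adjusted p = 0.0334). At 5 weeks Col5a1 fell by 0.48 (SE 0.10, adjusted p = 0.00304). The difference of -0.27 between the cold effects at both times was not called (adjusted p = 0.19). A second probe set of Col5a1 differed by -0.53 and -0.43 (SE 0.14 each). On it the 1 week controls read 9.93, 10.02 and 10.10 and the cold arrays 9.63, 9.66 and 9.15, so the groups were apart. A dimmer probe set differed by -0.27 and -0.96 (SE 0.29 each).

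Col5a3, the least common chain of type V, read 11.31, 10.71 and 10.74 in the controls and 11.02, 11.20 and 10.99 in the cold at 1 week. One control array (replicate 1) lay above all cold arrays and the other 2 below them. At 5 weeks it read 11.44, 11.39 and 11.35 in the controls and 10.55, 10.64 and 10.39 in the cold, with a gap between groups. The change was 0.15 (SE 0.15, adjusted p = 0.406) at 1 week, and 0.35 without control_1wk replicate 1 (adjusted p = 0.0163). Replicates 2 and 3, then the only 1 week controls, had a Gapdh 3′ less 5′ signal (described below) of 3.00 and 3.12, against 0.90 on replicate 1. At 5 weeks Col5a3 fell by 0.87 (SE 0.15, 1.82-fold lower, adjusted p = 0.000932). The cold effects differed by -1.02 (SE 0.21, adjusted p = 0.00994), which was the largest difference among the collagens.

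Col27a1 encodes a fibrillar collagen known mainly from cartilage. It read 7.92, 7.63 and 8.04 in the controls and 8.67, 8.49 and 8.56 in the cold at 1 week, and 7.86, 7.71 and 8.10 in the controls and 9.31, 9.36 and 8.61 in the cold at 5 weeks. All cold arrays were above all controls of their week, and 1 of the 5 week cold arrays (replicate 3) lay well below the other 2. Col27a1 rose by 0.71 at 1 week (SE 0.19, 1.64-fold, adjusted p = 0.00902) and by 1.21 at 5 weeks (SE 0.19, 2.31-fold, adjusted p = 0.000617). A second probe set differed by 0.65 and 1.96 (SE 0.20 each). The 1 week rise was not called with the Gapdh covariate described below (0.30, adjusted p = 0.341) or without control_1wk replicates 2 and 3 (0.65, adjusted p = 0.116), and the 5 week rise was called in every alternative run. Its cold effects differed by a called amount only without cold_5wk replicate 3 (0.73, adjusted p = 0.0368) or with the mean over probe sets (0.90, adjusted p = 0.00944).

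The remaining tested fibrillar gene, Col2a1 of cartilage, read between 5.94 and 6.15 on the 12 arrays and changed by -0.04 and 0.04, with no call. In all, the fibrillar class had 4 falls and 1 rise among 8 genes at 1 week and 6 falls and 1 rise at 5 weeks, with medians of -0.32 and -0.50. Over all genes 31.6% were called lower and 17.9% higher at 1 week, and 21.2% and 15.0% at 5 weeks, against 50.0% and 75.0% lower in this class.

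Type IV collagen forms the basement membrane network under endothelium and around adipocytes. Col4a1 and Col4a2, its common chains, lie head to head on chromosome 8 on opposite strands, and their annotated RefSeq starts share 22 bases. Col4a1 read 13.97, 13.75 and 13.68 in the controls and 13.60, 13.56 and 13.50 in the cold at 1 week. At 5 weeks it read 13.71, 13.79 and 13.58 in the controls and 13.36, 13.38 and 13.67 in the cold. Cold arrays were all below the 1 week controls, while 1 cold array (replicate 3) lay among the 5 week controls. The changes were -0.25 (SE 0.11, adjusted p = 0.0777) and -0.22 (SE 0.11, adjusted p = 0.135), both short of the threshold, with 95% intervals from -0.49 to -0.01 and from -0.46 to 0.02. Its other probe set differed by -0.34 and -0.67 (SE 0.13 each), and the mean of both passed at both times (-0.29, adjusted p = 0.0274, and -0.44, adjusted p = 0.00441). Leaving out cold_5wk replicate 3 also brought the 5 week change of Col4a1 past the threshold (-0.32, adjusted p = 0.0411).

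Col4a2 read 11.61, 11.26 and 11.41 in the controls and 11.43, 11.48 and 11.35 in the cold at 1 week, where the groups overlapped, and 11.66, 11.73 and 11.61 in the controls and 11.26, 11.37 and 11.36 in the cold at 5 weeks, where they did not. It changed by -0.01 at 1 week (SE 0.10, adjusted p = 0.949) and fell by 0.34 at 5 weeks (SE 0.10, adjusted p = 0.0187). That call was lost without control_5wk replicate 1, control_5wk replicate 2 or cold_5wk replicate 1 (adjusted p = 0.0509, 0.0695 and 0.067), and with median centring (-0.18, adjusted p = 0.144). It was also lost with the Actb covariate described below. The difference of the cold effects was -0.33 (adjusted p = 0.111), and -0.42 and called without control_1wk replicate 1 (adjusted p = 0.0314).

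Col4a5, whose gene neighbours that of the untested Col4a6 on the X chromosome, read 7.74, 7.81 and 8.34 in the controls and 6.77, 7.12 and 7.06 in the cold at 1 week. At 5 weeks the signals were 7.58, 7.57 and 7.64 in the controls and 6.81, 7.44 and 7.22 in the cold. Groups were apart at both times, with a wide spread among the cold arrays at 5 weeks. Col4a5 fell by 0.98 at 1 week (SE 0.18, 1.97-fold lower, adjusted p = 0.00115). The 5 week change of -0.44 (SE 0.18, adjusted p = 0.0807) was not called, but passed with the replicate number as a block (adjusted p = 0.0439) and without cold_5wk replicate 2 (-0.58, adjusted p = 0.0408). A dimmer probe set read 0.13 at 1 week (SE 0.20), and the mean over both gave -0.42 with an adjusted p of 0.0752.

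Col4a4 belongs to the type IV network of specialised basement membranes such as that of the kidney glomerulus. It read 5.83, 6.06 and 6.06 in the controls and 5.94, 5.55 and 5.72 in the cold at 1 week, with groups overlapping. At 5 weeks Col4a4 read 6.09, 6.04 and 6.06 in the controls and 6.57, 6.63 and 6.89 in the cold, with every cold array above the controls. The 1 week change was -0.25 (SE 0.12, adjusted p = 0.106). It reached -0.35 and was called without cold_1wk replicate 1 (adjusted p = 0.038). At 5 weeks Col4a4 rose by 0.63 (SE 0.12, 1.55-fold, adjusted p = 0.00184), and the cold effects differed by 0.88 (SE 0.17, adjusted p = 0.00817). Its other probe set above the filter was scattered, at -1.32 and -0.57 (SE 0.45 each), and the mean over both gave 0.03 at 5 weeks (adjusted p = 0.938). Of the 4 tested type IV genes, 1 fell at 1 week, and 1 fell and 1 rose at 5 weeks, with medians of -0.25 and -0.28. The share called lower, 25.0% at each time, was near that of all genes (31.6% and 21.2%).

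Col6a1, Col6a2 and Col6a3 encode the chains that assemble together into the beaded filaments of type VI, and the end of the Col6a3 chain is the source of the fragment endotrophin. All were lower in the cold at both times. Col6a1 read 11.23, 11.24 and 11.19 in the controls and 10.75, 10.81 and 10.69 in the cold at 1 week. At 5 weeks Col6a1 read 11.40, 11.52 and 11.39 in the controls and 10.48, 10.56 and 10.49 in the cold. Control and cold arrays did not overlap, and the 5 week cold arrays were lowest of all 12. Col6a1 fell by 0.47 at 1 week (SE 0.07, 1.39-fold lower, adjusted p = 0.000395) and by 0.92 at 5 weeks (SE 0.07, 1.90-fold lower, adjusted p = 8.46e-06). Its cold effects differed by -0.45 (SE 0.10, adjusted p = 0.0155).

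Col6a2, the neighbour of Col6a1 on chromosome 10, read 11.63, 11.29 and 11.35 in the controls and 10.93, 10.96 and 10.89 in the cold at 1 week. Its 5 week signals were 11.48, 11.61 and 11.51 in the controls and 10.63, 10.78 and 10.72 in the cold. No cold array reached a control array of its week. Col6a2 fell by 0.50 (SE 0.10, 1.41-fold lower, adjusted p = 0.0015) and by 0.82 (SE 0.10, 1.77-fold lower, adjusted p = 9.65e-05). Its second probe set gave -0.41 and -0.89 (SE 0.11 each), and the difference of the cold effects, -0.33, was not called (adjusted p = 0.115), though it was without control_1wk replicate 1 (-0.43, adjusted p = 0.0246).

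Col6a3 read 11.57, 11.72 and 11.70 in the controls and 10.80, 10.97 and 10.81 in the cold at 1 week. The 5 week arrays gave 11.58, 11.67 and 11.46 in the controls and 10.78, 10.71 and 10.67 in the cold for Col6a3. Cold was below control on every array. Col6a3 fell by 0.80 (SE 0.09, 1.74-fold lower, adjusted p = 4e-05) and by 0.85 (SE 0.09, 1.80-fold lower, adjusted p = 3.92e-05), and the cold effects differed by -0.05 (adjusted p = 0.825). Calls for Col6a1, Col6a2 and Col6a3 against controls held at both times in all alternatives run.

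The tested beaded filament gene that was not called was Col6a4. It read 6.51, 6.24 and 6.71 in the controls and 6.54, 6.47 and 6.67 in the cold at 1 week, and 6.38, 6.58 and 6.37 in the controls and 6.29, 6.37 and 6.27 in the cold at 5 weeks. Groups overlapped at 1 week, and the cold arrays were level with or just below the controls at 5 weeks. Col6a4 changed by 0.07 (SE 0.12, adjusted p = 0.636) and -0.14 (SE 0.12, adjusted p = 0.399). The class medians were -0.49 at 1 week and -0.84 at 5 weeks, with 3 falls among 4 genes at each time (75.0%, against 31.6% and 21.2% of all genes called lower).

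Type XV collagen is a proteoglycan that ties basement membranes to the fibrils around them. Col15a1 read 9.89, 9.74 and 9.75 in the controls and 8.74, 8.67 and 8.62 in the cold at 1 week. At 5 weeks Col15a1 read 9.61, 9.67 and 9.43 in the controls and 8.87, 8.96 and 8.77 in the cold. Cold and control arrays were far apart, and the 5 week cold arrays read above those of 1 week. Col15a1 fell by 1.12 at 1 week (SE 0.09, 2.17-fold lower, adjusted p = 7.16e-06), the largest fall among the collagens at that time, and by 0.71 at 5 weeks (SE 0.09, 1.63-fold lower, adjusted p = 0.000175). The cold effects differed by 0.41 (SE 0.13, adjusted p = 0.0466). Leaving out any array but cold_5wk replicate 3 ended that last call, with values from 0.34 to 0.46 and adjusted p up to 0.101.

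Type XIV collagen is a fibril-associated type that coats type I fibrils. Col14a1 read 8.85, 9.42 and 9.17 in the controls and 8.64, 8.69 and 8.02 in the cold at 1 week, where cold_1wk replicate 3 was lowest. The 5 week signals of Col14a1 were 8.89, 9.04 and 9.02 in the controls and 8.26, 8.15 and 8.22 in the cold. Groups did not overlap at either time. Col14a1 fell by 0.70 (SE 0.18, adjusted p = 0.00708) and by 0.78 (SE 0.18, adjusted p = 0.00586). Without control_1wk replicates 2 and 3 the 1 week change was -0.40 and not called (adjusted p = 0.238), and it was also not called with the Gapdh covariate (-0.46, adjusted p = 0.196).

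Members called higher at 5 weeks and not at 1 week included Col8a1, a short-chain collagen of vessel walls, and Col20a1, a dimly read relative of the fibril-coating types. Col8a1 read 5.76, 5.53 and 5.87 in the controls and 6.37, 6.10 and 5.45 in the cold at 1 week, with groups overlapping, and 5.45, 5.54 and 5.75 in the controls and 6.21, 5.99 and 6.50 in the cold at 5 weeks, with cold above control. It rose by 0.66 at 5 weeks (SE 0.21, adjusted p = 0.0314) after 0.26 at 1 week (adjusted p = 0.33). That rise lost its call without control_5wk replicate 1 (0.60, adjusted p = 0.0992), control_5wk replicate 2 (0.64, adjusted p = 0.0841), cold_5wk replicate 1 (0.67, adjusted p = 0.0694) or cold_5wk replicate 3 (0.53, adjusted p = 0.111), and the 1 week value was 0.52 without cold_1wk replicate 3 (adjusted p = 0.0294). With the Actb covariate described below the 5 week change of Col8a1 turned negative and was not called. Its second probe set read -0.08 at 5 weeks (SE 0.17).

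Col20a1 read 5.67, 6.19 and 5.86 in the controls and 5.94, 5.77 and 5.91 in the cold at 1 week, and 5.73, 5.55 and 5.30 in the controls and 6.53, 6.03 and 6.04 in the cold at 5 weeks, where the groups were apart. It changed by -0.03 at 1 week (adjusted p = 0.884) and rose by 0.67 at 5 weeks (SE 0.17, adjusted p = 0.00981). Other probe sets of Col20a1 gave 0.03 and 0.08 at 5 weeks (SE 0.12 and 0.11). The difference of the cold effects was 0.71, short of the threshold (adjusted p = 0.0601), and passed without control_1wk replicate 1 (0.82, adjusted p = 0.0345).

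Among the rest of the class, Col16a1, another fibril-associated collagen, had log2 signals from 7.28 to 7.87. Col16a1 fell by 0.32 at 5 weeks (SE 0.09, adjusted p = 0.0198) after -0.17 at 1 week (adjusted p = 0.15). That call was lost without control_5wk replicate 2 (-0.26, adjusted p = 0.0859) or cold_5wk replicate 3 (-0.26, adjusted p = 0.0688), and with median centring (-0.17, adjusted p = 0.207). It was also lost with the Actb covariate described below. Not called at either time were Col7a1 of skin anchoring fibrils (0.37 and 0.50), Col9a1 of cartilage (0.21 and 0.08), fibril-associated Col12a1 (0.11 and -0.22), Col22a1 of tissue junctions (0.01 and 0.03) and membrane-spanning Col23a1 (-0.06 and -0.14). Some of these lay near the threshold. Col12a1 passed at 5 weeks without control_5wk replicate 3 (-0.29, adjusted p = 0.0349), Col7a1 passed at 5 weeks without cold_5wk replicate 3 (0.70, adjusted p = 0.0305), and Col9a1 passed at 1 week without cold_1wk replicate 2 (0.33, adjusted p = 0.00645). Of the 10 tested genes outside the 3 named classes, 2 fell at 1 week (20.0%, against 31.6% of all genes). At 5 weeks 3 fell (30.0% against 21.2%) and 2 rose, where 15.0% of all genes were called higher. The class medians were -0.01 at 1 week and -0.05 at 5 weeks.

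Untested members were 15 genes, Col4a3, Col4a6, Col6a5, Col8a2, Col9a2, Col9a3, Col10a1, Col11a1, Col11a2, Col13a1, Col17a1, Col19a1, Col24a1, Col25a1 and Col26a1. Many are chains of cartilage, epithelium or neurons. Their brightest probe sets read from 2.25 to 4.13, and only Col26a1 exceeded log2 4, on 2 arrays (4.08 and 4.13 on cold_1wk replicates 2 and 3). Tested members were above log2 4 on all arrays, apart from Col7a1, which was above it on 11.

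**Figure D3:**
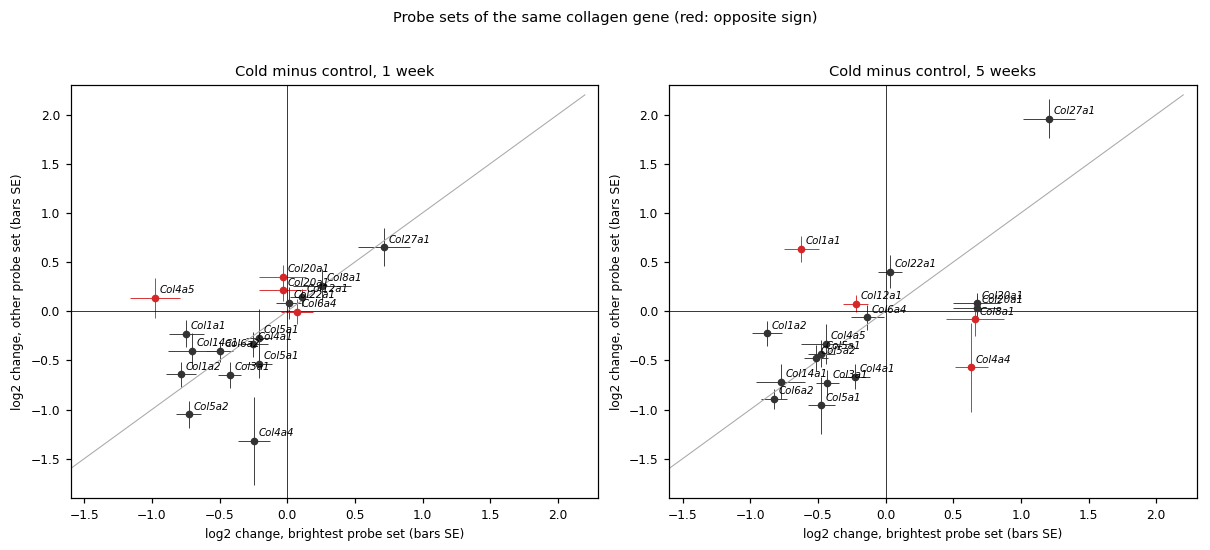
Log2 change of the brightest probe set (x axis) against that of each other probe set above the filter (y axis) for 16 collagen genes, left at 1 week and right at 5 weeks, with SE bars and a line of equality. Red points have opposite signs: 4 of 18 at each time, with Col1a1 at 5 weeks reading -0.62 on one probe set and 0.63 on the other.

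Probe sets of a gene can read different ends or forms of a transcript, and 16 tested members had more than 1 above the filter. Of the 18 other probe sets, 14 had the sign of the brightest at each time. Opposite signs came from Col20a1 (both of its other probe sets), Col4a5 and Col6a4 at 1 week, and from Col1a1, Col4a4, Col8a1 and Col12a1 at 5 weeks. Which stretch of the transcript each one reads was not analysed here.

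How the 2 cold effects differed was tested directly. The difference, 5 weeks minus 1 week, was called for 4 of 26 members (15.4%) against 19.8% of all genes, a share not above the background; 2 were negative (7.69%, against 8.38% of all genes) and 2 positive (7.69% against 11.5%). These were Col5a3 and Col6a1, whose 5 week effect was more negative, Col15a1, whose fall was smaller at 5 weeks, and Col4a4, which turned from -0.25 to 0.63. For the other genes called at only 1 of the times, no difference between times was shown. None of the 4 calls remained with the Gapdh, Actb or muscle covariate, without control_1wk replicates 2 and 3, or with the control_5wk arrays counted as 1.

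Among controls alone, 5 weeks against 1 week gave 0 collagen calls in limma, against 2.55% of all genes (1.28% higher and 1.27% lower at 5 weeks). The later controls lay wholly below the earlier for 4 members (15.4% against 19.3% of all genes) and wholly above for 3 (11.5% against 10.5%). At an unadjusted p under 0.05 in limma there were 7 of 26 members, against 2372 of 12855 genes (18.5%). With limma array weights 5 members passed after adjustment, and calls over all genes also rose, to the count given in the last section. Col1a1 differed by -0.45 (adjusted p = 0.0865) and Col5a3 by 0.47 (adjusted p = 0.111). Between the cold groups, 4 of 26 members (15.4%) were called against 27.5% of all genes, 1 higher (15.4% of all genes) and 3 lower (12%). The 5 week cold arrays lay wholly below those of 1 week for 8 members (30.8% against 19.9%) and wholly above for 4 (15.4% against 22.2%). Col4a4 was higher at 5 weeks by 0.96 (SE 0.12, 1.94-fold, adjusted p = 0.000624), while Col5a1 fell by 0.31 (SE 0.10, adjusted p = 0.0336), Col5a3 by 0.54 (SE 0.15, adjusted p = 0.0185) and Col6a1 by 0.24 (SE 0.07, adjusted p = 0.0337). This count was 2 without cold_1wk replicate 1 and 2 without cold_5wk replicate 1.

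Arrays and tissue markers moved with some of these groups. For the Gapdh control probe sets, the 3′ signal less the 5′ signal, which rises where RNA is broken or labelled mainly near its 3′ end, was 0.90, 3.00 and 3.12 on the 1 week controls and 0.96, 0.19 and 3.01 on the 5 week cold arrays, against -0.08 to 0.34 elsewhere. The same measure for Actb was 1.84 to 2.80 on the 5 week cold arrays and 1.01 to 1.35 on all others. With Actb as a covariate 5 collagens were called at 5 weeks, Col1a2, Col6a1, Col6a2, Col6a3 and Col27a1. With Gapdh as a covariate calls over all genes at 1 week went from 6361 to 3035. Leaving out control_1wk replicate 1 kept only the 1 week controls with the higher Gapdh values (3.00 and 3.12). This applies to the values given above without that array for Col5a3, Col4a2, Col6a2 and Col20a1. Values of single genes shifted in the fits with the Gapdh or Actb covariate. How much of each change came from RNA quality was not tested beyond these fits. For the marker counts that follow, the shares of all genes called lower were 31.6% at 1 week and 21.2% at 5 weeks. The shares of all genes called higher were 17.9% and 15.0%. Of the fibroblast and progenitor markers 10 of 12 were tested, and 7 fell at 1 week and 6 at 5 weeks. Their mean log2 signal was 10.79 to 10.95 in the 1 week controls and 10.24 to 10.38 in the cold, and 10.54 to 10.63 and 10.06 to 10.24 at 5 weeks. Among 8 macrophage markers 8 fell at 1 week and 7 at 5 weeks, whereas endothelial markers had 3 rises and 1 fall of 10 at 1 week and 1 rise and 2 falls at 5 weeks. Pericyte and smooth muscle markers (8 tested) averaged 8.16 to 8.52 in the 1 week controls and 8.20 to 8.64 in the cold, and 8.44 to 8.50 and 7.86 to 8.22 at 5 weeks, with Cnn1 higher and Mcam lower at both times and Tagln also lower at 5 weeks. Nerve and glia markers (3 of 6 tested) averaged 7.36 to 7.43 in the controls and 8.18 to 8.67 in the cold at 1 week, and at most 7.17 in the controls and 8.96 to 9.21 in the cold at 5 weeks. Among them S100b rose by 3.79 and 5.22 on the log2 scale (adjusted p = 2.7e-07 and 2.54e-08), Mbp fell at 1 week, and Sox10 was not called. Skeletal muscle markers (18 of 20 tested) averaged 8.03 to 8.25 on the 5 week controls and 9.61 on cold_1wk replicate 2, against 5.15 to 5.88 on the other arrays. With the muscle mean as a covariate 10 collagens were called at 5 weeks, and with the control_5wk arrays counted as 1, also 10. Calls over all genes at 5 weeks also fell in these settings and with Actb, to the counts given in the last section. The part of these cell types in the collagen signals was not tested. As for the labelled tissue, adipocyte markers (8 of 10 tested) averaged 12.15 to 12.85 in the 1 week controls and 12.98 to 13.04 in the cold, and 12.81 to 12.93 and 12.39 to 12.77 at 5 weeks. Of these 4 rose (Fabp4, Lipe, Pnpla2 and Slc2a4) and Lep fell at 1 week, and Fabp4 rose and Lep and Retn fell at 5 weeks. Brown or beige markers went from 6.15 to 6.86 in controls to 10.97 to 11.72 in the cold. Of 10 mesothelial and epididymal epithelial markers, Msln, Upk3b, Krt19, Wt1, Lcn5 and Adam7 were below log2 4 throughout and Krt8 reached 4.32. The tested others, Krt18, Cldn3 and Epcam, averaged 5.17 to 5.95 over the arrays, with Epcam called higher in the cold at 1 week and Cldn3 at 5 weeks.

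Genes that build, move, bind and remove collagen were followed beside the members. Lists were described by their counts, with 31.6% of all genes called lower and 17.9% higher at 1 week, and 21.2% and 15.0% at 5 weeks. Of 16 tested genes for modification and folding (19 listed), 6 fell and 1 rose at 1 week and 11 fell at 5 weeks, with medians of -0.36 and -0.62. Serpinh1, the collagen chaperone HSP47, changed by 0.41 at 1 week (adjusted p = 0.115) and fell by 1.27 at 5 weeks (SE 0.20, adjusted p = 0.000722), and the cold effects differed by -1.68 (adjusted p = 0.00633). Its 5 week arrays read 12.73, 12.61 and 12.34 in the controls and 11.64, 11.48 and 10.76 in the cold, and with Actb as a covariate the 5 week value was -0.25 and not called (adjusted p = 0.591). Crtap, part of the prolyl 3-hydroxylation complex, fell by 0.45 (adjusted p = 0.00207) and 0.68 (adjusted p = 0.000232). P4hb, a subunit of prolyl 4-hydroxylase, read -0.21 at 1 week (adjusted p = 0.273) and fell by 0.78 at 5 weeks (adjusted p = 0.00245). The lysyl hydroxylase Plod3 read -0.49 (adjusted p = 0.0654) and then fell by 1.04 (adjusted p = 0.00248), whereas Tmem38b, an endoplasmic reticulum cation channel, rose by 1.21 at 1 week (adjusted p = 0.000117) and read 0.33 at 5 weeks (adjusted p = 0.125). Its cold effects differed by -0.88 (adjusted p = 0.0212), a call lost without control_1wk replicate 2, control_5wk replicate 1 or control_5wk replicate 2 (adjusted p = 0.0537, 0.0552 and 0.0534).

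Export, propeptide cleavage and crosslinking genes gave 7 falls and 1 rise of 11 tested at 1 week (18 listed), and 3 falls and 1 rise at 5 weeks, with medians of -0.51 and -0.22. Mia3, which loads collagen into transport carriers, fell by 0.77 at 1 week (adjusted p = 0.000103) and read 0.05 at 5 weeks (adjusted p = 0.733), a difference of 0.81 (adjusted p = 0.0062). Pcolce2, an enhancer of propeptide cleavage, fell by 1.12 at 1 week (adjusted p = 0.000248) and read -0.37 at 5 weeks (adjusted p = 0.0983). The crosslinking enzyme Lox went against the list and rose by 0.34 (adjusted p = 0.0125) and 0.36 (adjusted p = 0.0147), while its relative Loxl1 fell by 0.53 at 5 weeks (adjusted p = 0.00797). Without control_1wk replicate 2 the 1 week rise of Lox was not called, and the 5 week rise was not called without control_5wk replicate 1 or 3 (highest adjusted p over single arrays left out, 0.0558 at 1 week and 0.0618 at 5 weeks).

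Collagen-binding matrix genes fell in 10 of 15 cases at 1 week and 7 of 15 at 5 weeks, with medians of -0.55 and -0.43 and no rise. Fibronectin, Fn1, fell by 1.02 (adjusted p = 9.4e-05) and 0.81 (adjusted p = 0.000631). The small proteoglycans Dcn and Bgn, which sit on type I fibrils, fell by 0.64 and 0.66 at 1 week (adjusted p = 0.000344 and 0.000312) and by 0.57 and 0.58 at 5 weeks (adjusted p = 0.00108 and 0.00111). Basement membrane partners of type IV gave 9 falls and 1 rise of 15 at 1 week and 12 falls at 5 weeks, with medians of -0.50 and -0.63. The laminin chain Lama2 fell by 0.94 (adjusted p = 8.08e-05) and 0.62 (adjusted p = 0.00183), and Nid1, which bridges laminin and type IV collagen, by 0.64 (adjusted p = 0.000168) and 0.63 (adjusted p = 0.000292). For Fbln2 the change was -0.13 at 1 week (adjusted p = 0.601) and it fell by 1.14 at 5 weeks (adjusted p = 0.000908), a difference of -1.01 (adjusted p = 0.0255).

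Receptors and breakdown genes were counted the same way. Of 7 tested receptors 4 fell at 1 week and 3 at 5 weeks, with medians of -0.79 and -0.39. Ddr2, a kinase receptor for fibrillar collagen, fell by 1.19 at 1 week (adjusted p = 9.11e-05), read -0.17 at 5 weeks (adjusted p = 0.396) and differed between times by 1.02 (adjusted p = 0.0107). Antxr2, a receptor that binds type IV and type VI collagen, fell by 1.01 (adjusted p = 0.000167) and 0.58 (adjusted p = 0.00704). Of 8 tested breakdown and uptake genes 6 fell at 1 week and 7 at 5 weeks, with medians of -0.65 and -0.72. Mmp2, a gelatinase, fell by 0.74 (adjusted p = 0.000469) and 0.73 (adjusted p = 0.000791), and Fap, a protease of activated fibroblasts, by 1.15 (adjusted p = 1.56e-05) and 0.50 (adjusted p = 0.00394). Mmp14, the membrane-bound activator of Mmp2, fell by 0.57 (adjusted p = 0.00125) and 0.79 (adjusted p = 0.000234), though its probe set mean read 0.39 at 1 week.

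**Figure D4:**
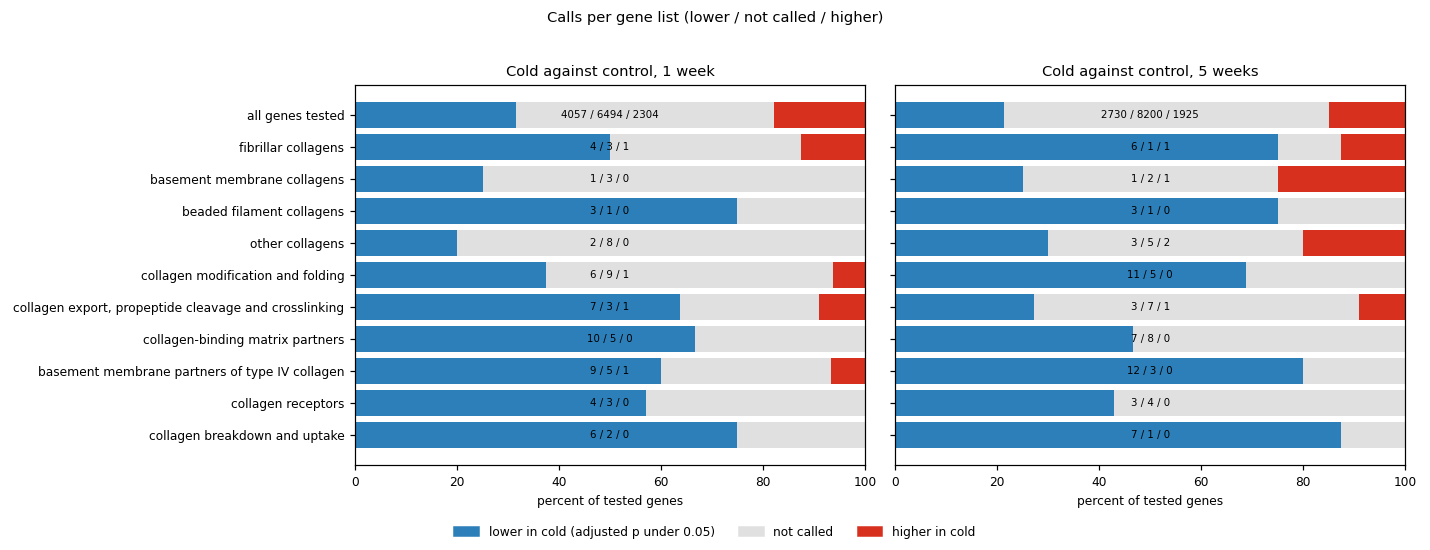
Share of tested genes (x axis, percent) called lower (blue), not called (grey) or higher (red) in the cold for all genes, the 4 collagen classes and 6 related lists, at 1 week (left) and 5 weeks (right), with the counts printed on each bar in that order. Type VI and the breakdown list have 3 of 4 and 7 of 8 genes lower at 5 weeks, against 2730 of 12855 overall.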

How the data were processed

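Expression of white adipose tissue was measured on 12 Affymetrix arrays in 4 groups of 3. The authors deposited log2 signals in 1 table, which GCRMA (background correction, normalization and probe summary) produced per the submitters' processing notes; the version of GCRMA is not given in the sources used here. There were 45101 probe sets with 0 missing values, and array medians were 4.79 to 4.89. The 64 control probe sets and those naming several genes (932) or none (9211) were left out of the tests. Probe sets above log2 4 on 3 or more arrays were kept, and the brightest by mean over 12 arrays stood for its gene.

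The package limma 3.58.1 (R 4.3.3; functions lmFit and eBayes, 2-sided tests) fitted changes on the means of 4 groups, over 5 contrasts. Adjustment followed Benjamini-Hochberg across all 12855 genes, with a threshold of 0.05. The script was tested on simulated data. Members and lists were chosen with earlier results of these data known. Values on every array are given for tested chains of types I, III, IV, V, VI and XV and for other members called with a change of at least 0.5. Related genes named were among the 4 smallest adjusted p of a list at either time. Replicate numbers were not used to pair arrays in the main fit. Deviations from the group means correlated at -0.11 to 0.18 between same-numbered arrays. Differently numbered arrays were not compared, so whether the numbers pair the arrays was not tested. Alternatives covered filters, scaling, probe set means, array weights, a replicate block, covariates and arrays left out. Promoter sequences are from RefSeq. Probe set positions and protein sequences were not analysed here.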

Additional observations from a re-analysis of the deposited data

Results flagged for a closer look

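For 4 collagen genes the cold effect differed between 5 weeks and 1 week by a test of the difference itself in limma. This was 15.4% of the tested members against 19.8% of all genes, not above the background. None of these calls remained with the Gapdh, Actb or muscle covariate, or with the control_5wk arrays counted as 1. Col5a3 differed by -1.02 (adjusted p = 0.00994), with a 1 week effect of 0.15 and a 5 week effect of -0.87. Col4a4 differed by 0.88 (adjusted p = 0.00817), with effects of -0.25 and 0.63. Its other probe set above the filter read -0.57 at 5 weeks (SE 0.45). Col6a1 differed by -0.45 (adjusted p = 0.0155), and all its cold arrays were below the controls at both times. Col15a1 differed by 0.41 (adjusted p = 0.0466), with falls at both times. Groups of 3 arrays are too small for a test of single outlying arrays.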

How the results depend on the processing

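Collagen calls against controls went from 9 to 14 over all alternatives at 1 week (11 as reported), and at 5 weeks from 17 to 5 with the Actb covariate, 10 with the muscle covariate and 10 with control_5wk averaged (14 to 18 with single arrays left out). For the difference of the cold effects the 4 calls became 0 with the Gapdh, Actb and muscle covariates, with control_5wk averaged, without control_1wk replicates 2 and 3, and without those and cold_5wk replicate 3 (a setting chosen after seeing the data), but 8 with array weights (3 to 6 with single arrays left out). Controls at 5 against 1 week gave 5 with array weights and 0 to 1 with single arrays left out. The cold groups gave 0 with Actb and 2 with Gapdh, the muscle covariate, quantile normalization and a fit on those groups alone (2 to 5 with single arrays left out). The replicate block gave 11, 18, 4, 0 and 3 calls and changed 1 call against controls, Col4a5 at 5 weeks. Over all genes, 1 week calls were 6361 and became 3035 (Gapdh), 2884 (without control_1wk replicates 2 and 3) and 3156 (also without cold_5wk replicate 3). The 5 week calls were 4655 and became 795 (Actb), 2498 (muscle) and 1608 (control_5wk averaged). The difference had 2551, then 0 (Actb), 3 (Gapdh), 822 (muscle), 133 and 160 (arrays left out as above), 1 (control_5wk averaged) and 1381 to 3021 with single arrays left out. Controls alone had 328, then 30 (Gapdh), 213 (muscle), 48 and 43 (arrays left out as above), 13 (control_5wk averaged), 2042 (array weights) and 61 to 840 with single arrays left out. The cold groups had 3534, then 5 (Actb), 1885 (Gapdh), 2126 (a fit on those groups alone), 2249 (all 3 arrays left out) and 2054 to 3367 with single arrays left out. Signs turned for Col1a1 at 5 weeks (0.0047), Lama4 at 1 week (0.40) and Mmp14 at 1 week (0.39) with the mean over probe sets, and for Col8a1 at 5 weeks with Actb (-0.10). Where a setting keeps fewer arrays it also tests with fewer; other causes were not tested. Actb rises in cold_5wk alone, so it and that group cannot be told apart. Signals near log2 4 are the least certain.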
